A study of Mus musculus with 69 samples.

Results

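The cells described are 26 single progenitors of the mouse cortex in which the array signal of Sox2 RNA passed 50. In 6 of them the signal of Eomes RNA passed 50 too, on 1 probe set, and in 20 it did not. All 26 came from CD1 mouse embryos at embryonic day 14, from small pieces of the dorsolateral cerebral wall. These held the germinal layers beside the ventricle, where progenitors divide: the ventricular zone and, above it, the subventricular zone (together VZ/SVZ). The strain and the layer follow the source label, since the description label gives another strain code and names the VZ/SVZ for the cortical plate cells too. The pieces were trypsinised, loose cells were picked at random by hand with a glass capillary, and the cDNA of each cell was amplified and put on 1 whole-genome array. Of 69 cells in all, 66 came from the VZ/SVZ and 3 from the cortical plate, and 31 of the 66 have a title with the letter X. The labels do not say what the letters stand for. No cell was mutant, treated or sorted, and no label names an animal or litter.

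The members were chosen by their own signals: Sox2 above an intensity of 50, and then Eomes above 50 or not. Sox2 passed in 26 of the 31 letter X cells (83.9%, exact 95% interval 66.3 to 94.5), and Eomes passed in 6 of those 26 (23.1%, 8.97 to 43.6). The levels of Sox2 and Eomes are therefore a description and support nothing. All other differences describe these cells and have no replicate check, since cells are not replicates. In a single amplified cell, a signal under 50 does not separate absence of a transcript from its loss during amplification.

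Sox2 is a transcription factor of neural stem cells and is high, with Pax6, in apical progenitors, the radial glia that line the ventricle and divide there. Notch signalling, through the target genes Hes1 and Hes5, holds these cells in the progenitor state. A cell that raises the proneural factor Neurog2 and the ligand Dll1 switches on Eomes (also called Tbr2), leaves the ventricular surface and becomes an intermediate progenitor, which divides in the subventricular zone to give neurons. Eomes falls again as the daughter neurons raise Neurod1 and then Tbr1. Cells that hold both Sox2 and Eomes are usually placed at the start of this path, and the comparison asks what else such cells held.

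The start regions of Eomes and of the Notch ligand gene Dll1 and of Hes6 are shown first, because Dll1 and Hes6 were the 2 intermediate progenitor genes with the largest differences below and Eomes is the gene that split the cells. Each is a stretch of 300 bases around an annotated start, most of it before the start, taken from RefSeq (GRCm38.p6). Capitals mark the E-box, CANNTG, the core that proneural factors such as Neurog2 bind.
Eomes, chr9:118477939-118478238, plus strand: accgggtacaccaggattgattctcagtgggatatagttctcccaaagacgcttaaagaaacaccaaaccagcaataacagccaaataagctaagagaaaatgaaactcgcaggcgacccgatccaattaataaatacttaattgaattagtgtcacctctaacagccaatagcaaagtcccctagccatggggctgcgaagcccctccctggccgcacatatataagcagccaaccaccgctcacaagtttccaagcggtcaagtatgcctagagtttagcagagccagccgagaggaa
Dll1, chr17:15376883-15377182, minus strand: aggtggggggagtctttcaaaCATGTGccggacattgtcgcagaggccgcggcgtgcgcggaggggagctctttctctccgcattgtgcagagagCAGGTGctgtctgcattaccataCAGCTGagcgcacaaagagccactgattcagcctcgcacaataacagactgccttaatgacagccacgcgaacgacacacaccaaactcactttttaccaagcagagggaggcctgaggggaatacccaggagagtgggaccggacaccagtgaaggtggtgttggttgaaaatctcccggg
Hes6, chr1:91413989-91414288, minus strand: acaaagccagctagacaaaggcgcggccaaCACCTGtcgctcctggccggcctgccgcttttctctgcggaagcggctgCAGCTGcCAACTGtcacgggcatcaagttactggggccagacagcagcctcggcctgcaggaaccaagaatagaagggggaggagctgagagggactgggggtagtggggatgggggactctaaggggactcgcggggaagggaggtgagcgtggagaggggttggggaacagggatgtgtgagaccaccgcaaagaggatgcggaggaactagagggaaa
The windows of Dll1 and Hes6 each held 3 E-boxes, and that of Eomes held 0. Of 32851 promoter windows of this length, 72.3% held at least 1, so the motif is common. CAGATG, or CATCTG on the other strand and itself an E-box, stood in 17.2% of all windows and in none of these 3. GGTGTGA or TCACACC, the core of the site that T-box factors such as Eomes bind, stood in 3.98% of all windows and in none of these 3. A match is a run of letters, not a measured site.

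Sox2 signals in the 6 cells with Eomes were 2894 in X-10C, 886 in X-16K, 3020 in X-16O, 1350 in X-20O, 1451 in X-21J and 281 in X-5i. In the 20 cells without Eomes, Sox2 ran from 484 to 4345 with a median of 1552. Only X-5i lay below that range. The highest Sox2 signal left out was 47.8, in X-10E, and the lowest kept was 281. Eomes signals were 245 in X-16O, 484 in X-21J, 541 in X-5i, 695 in X-20O, 731 in X-10C and 2502 in X-16K, against 1.05 to 40.8 with a median of 7.28 in the 20 others. The highest cell outside the Eomes group was X-21F, at 40.8, so no letter X cell with Sox2 lay between 40.8 and 245.

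The array carries 2 probe sets for Eomes, and they did not report the same cells. The second one, which the rule did not use, passed 50 in 1 of the 6 cells (16.7%, 0.421 to 64.1): it read 1412 in X-16K and 0.479 to 13.2 in the other 5. It passed in 0 of the 20 cells without Eomes, whose highest value was 7.72, which allows a share of up to 16.8%. In the Sox2 and Eomes cells with the letters A to D, which the rule did not use, the second probe set passed in 14 of 15 (93.3%, 68.1 to 99.8). Over all other VZ/SVZ cells with Eomes it passed in 21 of 22 (95.5%). In the letters A to D cells with Sox2 and without Eomes, it passed in 1 of 8. That cell was A-15K, at 103 on the second probe set and 4.76 on the first, and it is counted below as without Eomes. X-16K was thus the only one of the 6 in which both probe sets passed, and the first probe set in the other 5 read no higher than 731 against a median of 1594 in the 15 cells.

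**Figure D1:**
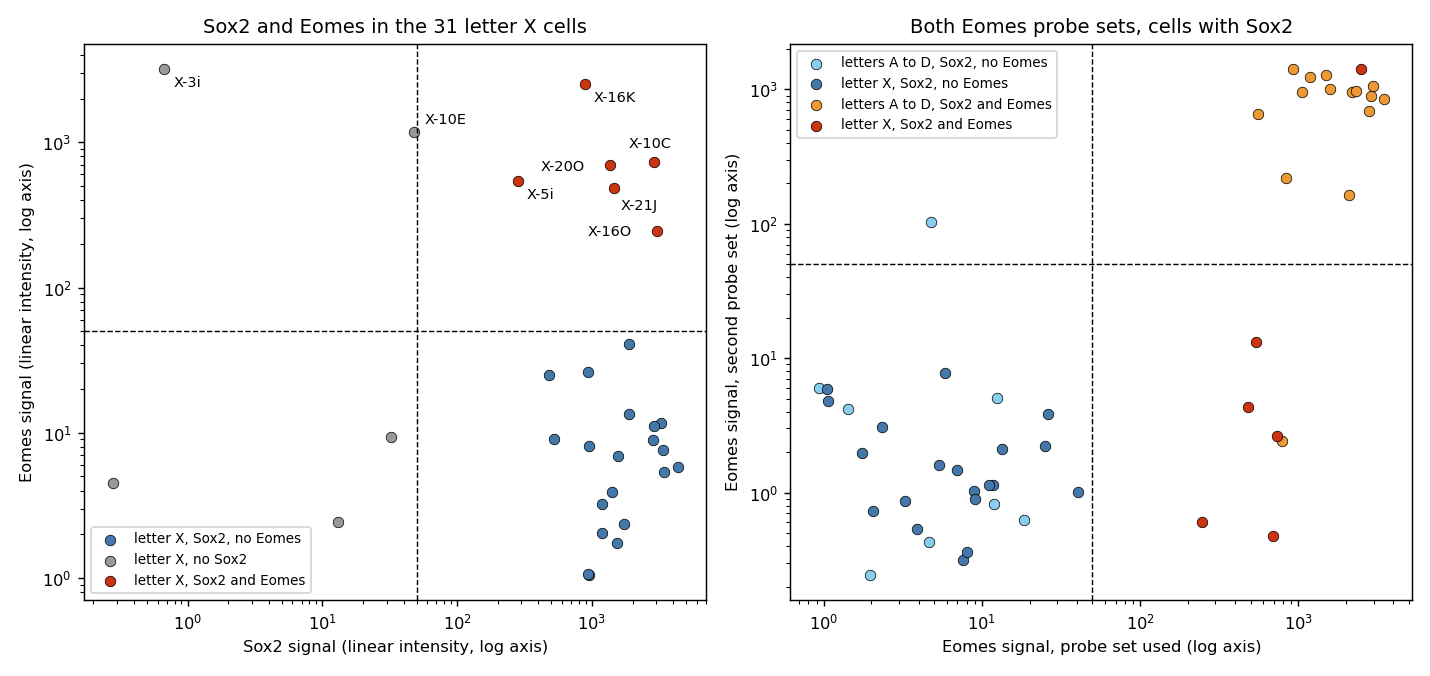
Each point is 1 cell and both axes of both panels are linear array intensity on a log scale, with dashed lines at 50. Left, Sox2 against Eomes in the 31 letter X cells, with the 6 Sox2 and Eomes cells in red and their Eomes signals between 245 and 2502. Right, the Eomes probe set used against the second one in cells with Sox2: 1 of 6 letter X cells with Eomes and 14 of 15 cells with the letters A to D lie above 50 on both.

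The cell X-5i went against the apical label that Sox2 gives. Its Pax6 signal was 7.03, whereas the other 5 cells with Eomes read 1376 to 3469 and the 20 without read 1073 to 3159. Neuronal transcripts were bright in it: Tubb3, a neuronal tubulin, at 5653, Dcx, a microtubule protein of migrating neurons, at 3583, and Tbr1, a factor of deep-layer neurons, at 996. Mki67, a protein of cycling cells, read 5392 in the same cell, above the 1822 to 5000 of the 20 cells without Eomes. It also passed 50 for 3 of 9 interneuron lineage markers, Dlx2 at 1043, Lhx6 at 139 and Gad1 at 93.8, none of which passed in the 25 other cells. For the comparison of cells with and without Eomes, the counts of each gene list are therefore also given without it where they change.

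Between 3778 and 4924 genes passed 50 in the cells with Eomes (median 4430.5) and between 4419 and 5715 in those without (median 4969.5). The spike RNA lys, added at 1000 copies a cell, read 12.65 ± 0.13 on the log2 scale (SD, 6 cells) and 12.48 ± 0.21 (20 cells). The phe RNA, at 20 copies, read 10.15 ± 0.73 and 9.87 ± 0.92. Pairwise correlations of log2 signal over the 26 cells ran from 0.539 to 0.656, and no 2 arrays were identical. The part of the lower gene number and of the spike signals in the differences below was not tested.

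Over the 18192 genes other than Sox2 and Eomes, 631 (3.47%) were higher with Eomes by at least 1 log2 unit and 783 (4.3%) were lower. Without X-5i, 676 (3.72%) were higher and 911 (5.01%) lower, of which 447 and 644 were the same genes. With any 1 cell left out, 248 genes (1.36%) stayed higher and 461 (2.53%) lower. In no gene did the groups separate fully: 0 (0%) had all 6 cells above all 20, and 0 (0%) had all 6 below all 20. The median difference was 0 over all genes and -0.06 over the 10145 genes above 50 in any of the 26 cells. Against only the 9 cells without Eomes that passed no more genes than the richest Eomes cell, 1066 genes were higher and 750 lower. With the mean of all probe sets of a gene in place of 1, the counts were 296 and 355.

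Apical progenitor markers were present in 5 of the 6 cells in numbers within the range of the cells without Eomes, and X-5i held few of them. Of 26 markers measured, 1 was higher and 8 were lower with Eomes, with a median difference of -0.76, beside 3.47% and 4.3% of all genes. Without X-5i, 2 were higher and 4 lower, with a median of -0.15, beside 3.72% and 5.01%. The number of apical markers above 50 per cell was 6 in X-5i, 21 to 25 in the other 5, and 20 to 26 (median 24) in the cells without Eomes. Pax6, which specifies cortical radial glia, read 3160 in X-10C, 3469 in X-16K, 1922 in X-16O, 1376 in X-20O and 2232 in X-21J, all within or above the range of the cells without Eomes. Its difference was -0.75 with X-5i and 0.17 without it, and it passed -1 without X-10C (-1.03) or X-16K (-1.05). A second Pax6 probe set passed in 3 of 6 cells and 5 of 20, at 0.85, or 1.12 without X-5i. The remaining ones gave 0, 0 and -0.006. Fabp7, a lipid-binding protein of radial glia, read 6231 to 7353 in those 5 cells and 899 in X-5i, against 3327 to 8973 in the cells without Eomes. Vim, their intermediate filament, read 4391 to 6242 in the 5 and 1591 in X-5i.

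The Notch effectors did not move together. Hes1, a repressor of proneural genes, read 295 in X-16K and 310 in X-20O and under 11 in the other 4 cells, and it passed 50 in 10 of the 20 cells without Eomes, where it reached 863. The groups overlapped and the difference was -0.07. Hes5, its close relative, read 179 in X-10C, 125 in X-16K, 618 in X-16O, 375 in X-20O, 342 in X-21J and 6.87 in X-5i. It passed in 15 of 20 cells without Eomes, with a median of 149, and the difference was 0.55, or 0.97 without X-5i. All 5 cells with Pax6 held Hes5.

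Notch1, the receptor, read 1143 in X-10C, 437 in X-16K, 1117 in X-16O, 1089 in X-20O, 3050 in X-21J and 2.21 in X-5i. In the cells without Eomes it ran from 429 to 4025 with a median of 2158. Only X-21J lay above that median, and the difference of -1.48 came to -0.73 without X-5i. A second Notch1 probe set went the other way, at 1.01. Mfge8, a secreted protein of radial glia, was under 50 in X-16K and X-5i and read 636 to 2731 in the other 4, against 353 to 3098 in all 20 cells without Eomes. Its difference was -1.65, and -1.03 without either X-16K or X-5i. Ednrb, the endothelin receptor, passed in 3 of 6 cells and 19 of 20, with a difference of -1.78. Another Ednrb probe set passed in 2 of 6 and 1 of 20, at 0.95, or 1.17 without X-5i. A further one passed in 0 of 6 and 1 of 20, at -0.0012. Zfp36l1, an RNA-binding protein, passed in 4 of 6 and 19 of 20, with -1.84.

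Sox9, a factor of neural stem cells, passed in 3 of 6 cells and 20 of 20, with a difference of -1.42, but its second probe set passed in 4 of 6 and 3 of 20, at 1.43, and the mean of all its probe sets gave 0.0026. Ddah1 and Aldoc, both enzymes high in radial glia, had differences of -1.54 and -1.14, which came to -0.62 and -0.27 without X-5i. Ttyh1, a membrane channel protein, had -1.25, and -0.63 without X-10C or X-5i. Nr2e1 (Tlx), a nuclear receptor that keeps neural stem cells dividing, was the only apical marker called higher in the 6 cells, by 1.68, and by 2.42 without X-5i. It read 1406 in X-10C, 165 in X-16K, 2089 in X-16O, 910 in X-20O, 2962 in X-21J and 0.158 in X-5i, and it passed in 10 of the 20 others, with a highest value of 2313. X-21J alone lay above all 20. The other Nr2e1 probe set passed in 0 of 6 cells and 3 of 20, at -0.40.

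Intermediate progenitor markers were many in X-5i, and in 4 of the other 5 cells their number lay within the range of the cells without Eomes. Of 26 measured, 7 were higher and 1 was lower, with a median of 0.59; without X-5i, 4 were higher and 2 lower, with a median of 0. The number above 50 was 19 in X-5i, 4 to 12 in the other 5, and 3 to 11 (median 7) in the cells without Eomes. Of all genes, 3.47% were called higher and 4.3% lower, or 3.72% and 5.01% without X-5i. Nothing is read from the comparison, since the cells were chosen by a gene of this same programme. Neurod4, Mfap4 and Tac2 did not pass 50 in any of the 26 cells, and neither did the Neurog1 probe set used; the other Neurog1 probe set passed in 1 of 6 cells and 0 of 20.

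Dll1, the ligand by which a differentiating cell signals to its neighbours, read 9.38 in X-10C, 2766 in X-16K, 6.05 in X-16O, 257 in X-20O, 1131 in X-21J and 2130 in X-5i. It passed in 6 of the 20 cells without Eomes, where the median was 14.1 and the highest value 1161. X-16K and X-5i lay above all 20, and the difference was 2.06, or 1.58 without X-5i. Hes6, an inhibitor of Hes1 that favours neurogenesis, read 619 in X-10C, 4186 in X-16K, 81.8 in X-16O, 353 in X-20O, 487 in X-21J and 1360 in X-5i. It passed in all 6 cells and in 10 of 20, with a median of 86.2 and a highest value of 1477 in the latter. The difference was 2.12, or 1.89 without X-5i; a second probe set passed in 4 of 6 and 8 of 20 cells and gave 1.22.

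Insm1, a zinc-finger factor that drives the formation of basal progenitors, read 439 in X-10C, 2007 in X-16K, 2.27 in X-16O, 836 in X-20O, 937 in X-21J and 1768 in X-5i. It passed in 15 of the 20 others, where it reached 4277. The difference of 1.04 went under 1 when any of X-16K, X-20O, X-21J or X-5i was left out, to 0.70 at the lowest, and came to 1.77 without X-16O, while the second probe set passed in 6 of 6 and 14 of 20 cells, with 2.17. Rhbdl3, a rhomboid-like membrane protein, read 459 to 1014 in the 5 cells with Pax6 and 1.54 in X-5i, and passed in 12 of 20 others. Its difference was 1.49, or 2.16 without X-5i, and its second probe set gave 1.5.

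Neurog2, which acts directly upstream of Eomes, was not higher in these cells. It read 399 in X-10C, 3225 in X-16K, 4.21 in X-16O, 656 in X-20O, 21.2 in X-21J and 1212 in X-5i, and it passed 50 in all 20 cells without Eomes, which ran from 62.4 to 4662 with a median of 870. X-16O and X-21J lay below all 20. The difference was -1.14, and -0.56 when either of those 2 cells was left out or -1.77 without X-16K. Gadd45g, a stress and growth-arrest protein that rises in newborn intermediate progenitors, read 1376 in X-16K and 351 in X-20O and under 13 in the other 4, and passed in 3 of 20 others. Its difference was 0.95, or 1.21 without any one of the 4 cells that lacked it. Btg2, an antiproliferative protein of neurogenic divisions, read 657 in X-16K, 980 in X-20O and 558 in X-5i and under 15 in the other 3; it passed in 14 of 20 others, and the difference was -0.14.

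The 6 cells thus differed among themselves in which neurogenic genes they held. X-16K and X-20O held Hes1, Hes5, Neurog2, Gadd45g, Btg2, Insm1, Dll1 and Hes6 together with Pax6. X-10C held Pax6, Hes5, Neurog2, Insm1 and Hes6 but had Dll1, Gadd45g and Btg2 under 50. X-21J held Dll1, Insm1 and Hes6 with Neurog2, Gadd45g and Btg2 under 50. X-16O held Hes5 and Hes6 at 81.8 and had Neurog2, Insm1, Dll1, Gadd45g and Btg2 under 50. In the cells without Eomes, Neurog2 with Insm1 was common, since the first passed in 20 and the second in 15 of 20.

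Mfng, a glycosyltransferase that modifies Notch, passed in X-16K at 1236 and in X-5i at 1312 and in 2 of 20 others. Its difference of 1.30 was 0.69 without X-16K and 0.67 without X-5i, and -0.02 with the Eomes threshold at 6.26, the level of the TrpnX control probe sets, which puts 17 cells with Eomes against 9. Abcd2, a peroxisomal transporter, passed in X-16K, X-16O and X-5i, with a difference of 1.23, or 0.69 without X-5i and 0.87 without X-16K. Sstr2, a somatostatin receptor of intermediate progenitors, passed in X-5i alone, at 3887, and in none of the other 25 cells. The same held for Neurod1, at 553 in X-5i and no more than 7.37 elsewhere, for Nrn1 at 2731 and for Slc17a6, the vesicular glutamate transporter, at 1529. Myt1, a zinc-finger factor of neurogenesis, passed in X-16O at 203, X-20O at 54.8 and X-5i at 258, and in 1 of 20 others.

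**Figure D2:**
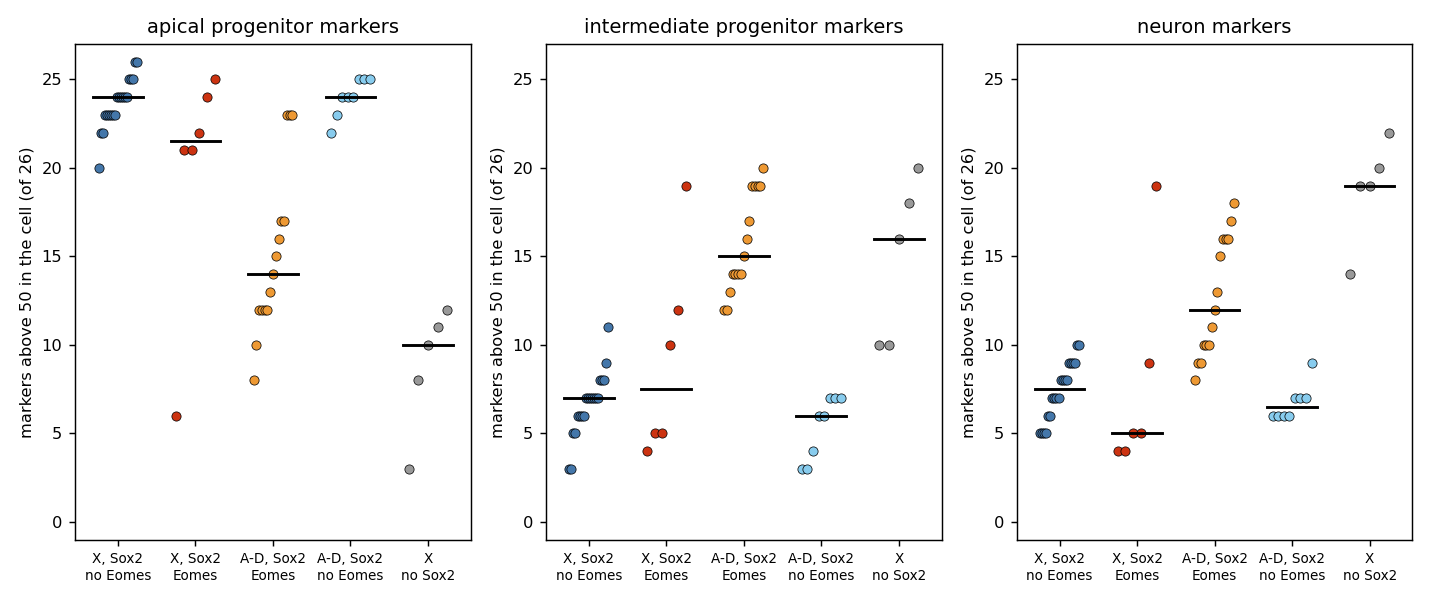
Number of markers above an intensity of 50 in each cell (vertical axis, out of 26 per list), one point per cell, with a bar at the group median. The letter X cells with Eomes (red) hold 21 to 25 apical markers apart from 1 cell, X-5i, which holds 6 and has 19 intermediate progenitor and 19 neuron markers; the letters A to D cells with Eomes (orange) hold 8 to 23 apical and 12 to 20 intermediate progenitor markers.

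Neuron markers rested on X-5i. Of 26 measured, 5 were higher and 0 lower, with a median of 0.35, beside 3.47% and 4.3% of all genes. Without X-5i, 1 was higher and 2 were lower, with a median of -0.04, which is near the 3.72% and 5.01% of all genes. The number above 50 was 19 in X-5i, 4 to 9 in the other 5, and 5 to 10 (median 7.5) in the cells without Eomes. Tubb3 was under 10 in the other 5 cells, whereas 5 of the 20 cells without Eomes passed 50, at up to 545, so that its difference of 0.56 became -0.57 without X-5i. Tbr1 passed in X-5i and in 1 of 20 others, at 221. Neurod2 and Neurod6, factors of cortical projection neurons, had differences of 1.07 and 1.41, which came to 0.03 and 0.55 without X-5i. Elavl3, a neuronal RNA-binding protein, had 1.19, and 0.64 without X-16O or 0.59 without X-5i.

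Dcx was the only neuron marker still called higher without X-5i. It read 308 in X-16O and 742 in X-21J besides 3583 in X-5i, was under 6 in the other 3 cells, and passed in 2 of 20 others, at up to 292. X-16O, X-21J and X-5i lay above all cells without Eomes, and the difference was 1.89, or 1.08 without X-5i. The 2 markers lower without X-5i were Map2, a dendritic microtubule protein, and Dpysl3, a growth-cone protein. Dpysl3 had -1.63 without X-5i, but another of its probe sets passed in 3 of 6 cells and 1 of 20, at 0.98, or 0.84 without X-5i. A further one passed in 1 of 6 and 0 of 20, at 0.70, or 0 without X-5i. Map2 passed in all 20 cells without Eomes, at 97.5 to 1809, and in 3 of 6 with it, at 371, 3019 and 3552. Sox4, a factor shared by progenitors and neurons, read 521 to 5230 in the 6 cells and passed in 19 of 20 others; its difference of 1.08 was 0.81 without X-21J and 0.78 without X-5i.

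**Figure D3:**
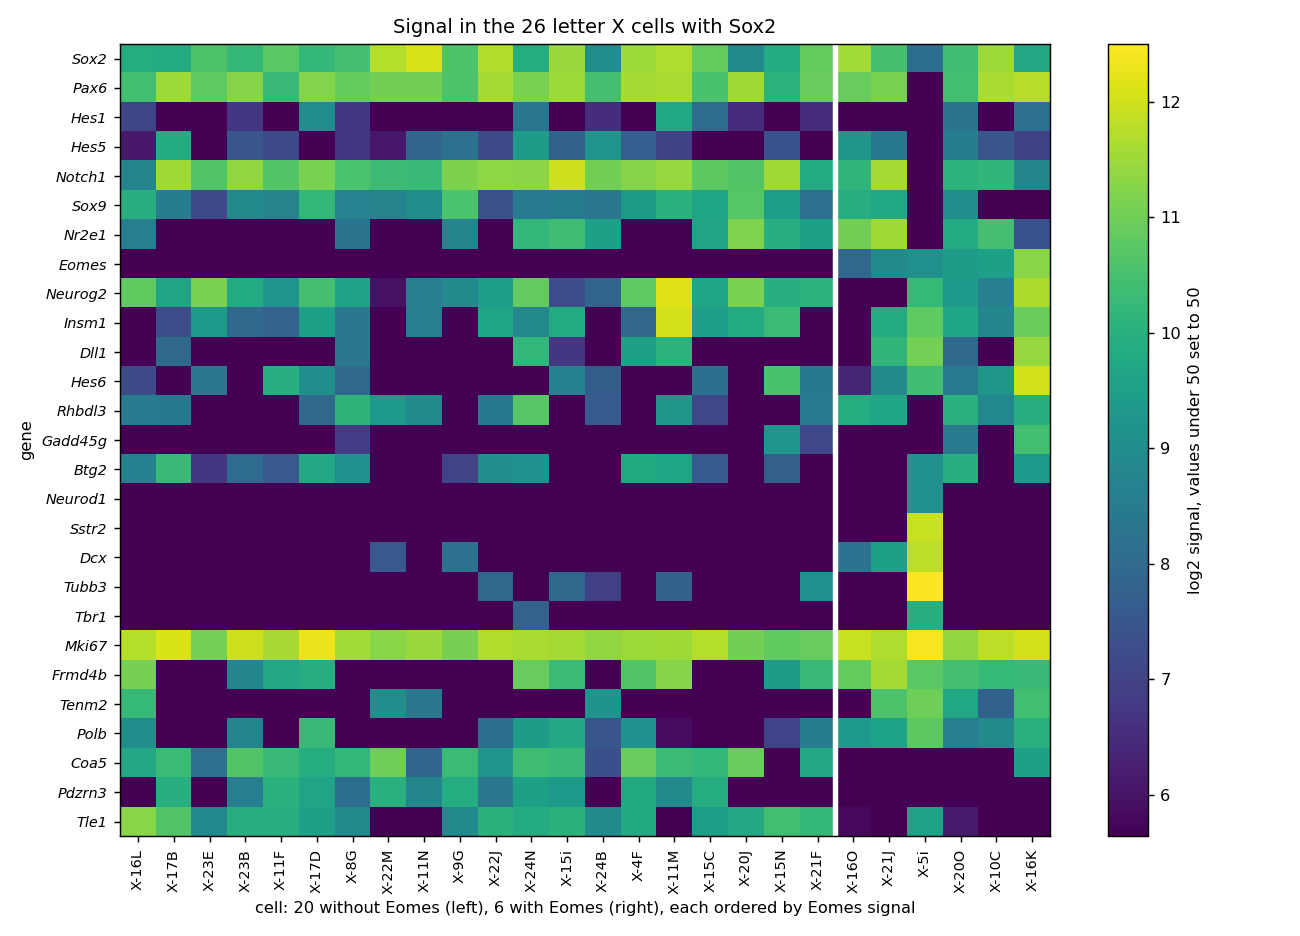
log2 signal of 27 genes (vertical axis) in the 26 letter X cells with Sox2 (horizontal axis), with values under 50 set to 50 and drawn darkest; the 20 cells without Eomes lie left of the white line and the 6 with Eomes right of it, each in order of Eomes signal. Pax6 is dark in X-5i only, where Sstr2, Dcx, Tubb3, Tbr1 and Neurod1 are lit, and Coa5 and Pdzrn3 are dark in 5 and 6 of the 6 Eomes cells.

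Of 22 genes of the Notch pathway measured, 3 were higher (Dll1, Rbpj and Mfng) and 1 was lower (Notch1), with a median of 0.04. Without X-5i, 4 were higher (Dll1, Rbpj, Nrarp and Rfng) and 0 lower, with a median of 0.06. Of all genes, 3.47% were higher and 4.3% lower with the 6 cells, and 3.72% and 5.01% without X-5i. Rbpj, the DNA-binding protein that carries the Notch signal, read 978 in X-10C, 972 in X-16K, 68.9 in X-16O, 1292 in X-20O, 2486 in X-21J and 827 in X-5i. It passed in 15 of 20 others, with a median of 283 and a highest value of 1574. The difference was 1.64, but its 2 other probe sets gave -0.14 and -0.40. Of 15 bHLH factors and Id inhibitors, 2 were higher (Neurod2 and Neurod6) and 1 lower (Neurog2), with a median of 0.14; without X-5i only Neurog2 was called and the median was 0.

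All 26 cells held Mki67, at 2651 to 5392 with Eomes and 1822 to 5000 without, a difference of 0.37. Of 22 S-phase genes, 0 were higher and 4 lower (Rrm2, Mcm2, Mcm4 and Gins2), with a median of -0.36. Without X-5i, 2 were lower and the median was -0.13. These counts stand beside 3.47% higher and 4.3% lower of all genes, and 3.72% and 5.01% without X-5i. Rrm2, a subunit of the enzyme that makes deoxyribonucleotides, passed in all 20 cells without Eomes, at 366 to 3473, and read 3.66 in X-10C and 590 to 2655 in the other 5. Its difference was -1.53, and -0.81 without X-10C. Mcm2 and Mcm4, parts of the helicase that opens replication origins, had -1.17 and -1.16, which came to -0.86 and -0.72 without X-16K or X-5i; the same values followed without X-20O for Mcm2 and without X-16O for Mcm4, and Mcm2 came to -1.77 without X-21J. With the Eomes threshold at 6.26, Rrm2 and Mcm2 turned to 0.05 and 0.51.

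Of 23 genes of G2 and mitosis, 5 were higher and 0 lower, with a median of 0.69, beside 3.47% and 4.3% of all genes. Without X-5i 6 were higher and 1 lower, with a median of 0.58, beside 3.72% and 5.01%. Aurka, a kinase of the spindle poles, read 1420 to 1665 in all 6 cells, a narrow range inside the 5.72 to 2175 of the others, 18 of which passed. Nusap1, which bundles spindle microtubules, read 2827 to 4573 in the 6 and 0.772 to 5310 in the 20. The differences were 1.27 for Aurka and 1.36 for Nusap1, and both turned, to -0.45 and -0.22, with the Eomes threshold at 6.26. Kif11, a spindle motor, passed in 5 of 6 and 14 of 20 cells, with a difference of 1.57; X-16K at 1399, X-21J at 1324, X-16O at 1124 and X-5i at 761 lay above the highest of the 20, 610. Kif20a, a motor of cytokinesis, had 1.18, and 0.99 without X-16O.

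Of 16 G1 regulators and inhibitors, 0 were higher and 1 was lower, with a median of -0.01, beside 3.47% and 4.3% of all genes. Without X-5i none was called, beside 3.72% and 5.01%. The gene called lower was Ccnd2, the cyclin of cortical progenitors. It read 2213 in X-10C, 3763 in X-16K, 2823 in X-16O, 1972 in X-20O, 22.95 in X-21J and 10.1 in X-5i. It passed in all 20 others, at 738 to 5064. X-21J and X-5i alone lay below that range, and the difference of -1.76 was -0.996 without either of them. Its 6 other probe sets did not share a sign, at -1.77 to 1.42.

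Of 13 junction and polarity genes, 2 were higher and 2 lower, with a median of 0.09, beside 3.47% and 4.3% of all genes. Tjp1 (ZO-1), a scaffold of the apical junction, passed in 2 of 6 cells, at 961 in X-10C and 476 in X-20O, and in 17 of 20 others, with a difference of -1.57. Mpp5 (Pals1), which holds the Crumbs polarity complex together, passed in 3 of 6 and 19 of 20, with -1.37. Pard3, of the Par complex, passed in X-16O at 730 and X-21J at 1340 and in 4 of 20 others. Its difference of 1.12 was 0.64 without X-16O and 0.46 without X-21J. The other Pard3 probe sets all went the other way, at -0.12, -0.14 and -0.53, the last passing in 0 of 6 and 5 of 20 cells. Of 18 genes of delamination and migration, none was called in either direction, and the median was 0. Without X-5i, Cdk5r1 alone was called, as lower, beside 3.72% of all genes higher and 5.01% lower.

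Of 14 Wnt targets and effectors, 1 was higher (Nkd1, an inhibitor of the pathway, by 1.03, or 0.59 without X-16O and 0.81 without X-5i, when Fzd8 was called in its place). Of 11 genes of FGF signalling, 1 was lower (Fgfr2, by -1.25, or -0.71 without X-16K or X-5i). For the lists of this paragraph, the shares of all genes were 3.47% higher and 4.3% lower, or 3.72% and 5.01% without X-5i. None of 11 genes of cortical area identity and none of 7 Btg, Tob and Gadd45 genes was called, apart from Gadd45g without X-5i. Of 11 glycolytic genes, 3 were lower (Pfkl, Pfkm and Aldoa), with a median of -0.15, and without X-5i 2 (Pfkl and Pfkm). Pfkl, the liver-type phosphofructokinase, passed in 0 of 6 and 14 of 20 cells and was at least 1.75-fold lower with Eomes, that being the geometric mean of the 20 deposited signals over 50. Pfkm and Aldoa had -1.30 and -1.08 (Aldoa -0.74 without X-10C or X-21J), and turned to 0.49 and 0.17 with the Eomes threshold at 6.26. Of 12 housekeeping genes 2 were lower, Sdha by -2.05 and B2m by -1.13, the latter turning to 0.49 at that threshold. Without X-5i, 4 housekeeping genes were lower, with a median of -0.18. The added ones were Hprt (-0.94, or -1.68 without X-5i), a purine salvage enzyme that read 1088 in X-5i and under 15 in the other 5 and passed in 14 of 20, and Eef2 (-0.73, or -1.02 without X-5i), a translation factor that passed in all 26 cells. Their part in the other differences was not tested. Of 13 immediate early genes 1 was higher, Ier2 by 1.01, or 0.38 without X-16O and 0.43 without X-10C.

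Markers of other cell types were not called, though a difference of means can miss a marker lit in 1 cell. X-5i passed 50 for the interneuron markers Dlx2 at 1043, Lhx6 at 139 and Gad1 at 93.8. Dlx2 passed in no other cell of the comparison, and its difference was 0.73. The calls therefore do not show that a single cell lacked such markers. The lists for interneurons (9 genes), Cajal-Retzius cells (8), endothelium (8), microglia (8), red blood cells (6), pericytes and meninges (8) and oligodendrocyte precursors (6) had 0 members called in either direction and medians of 0. No endothelial, microglial or erythroid marker passed 50 in any of the 26 cells. A pericyte or meningeal marker passed in 3 of the 6 cells with Eomes (Dcn at 163 in X-10C and 601 in X-20O, Pdgfrb at 266 in X-16O) and in 3 of the 20 without, 1 marker in each, while Rgs5, Col1a1, Col3a1, Lum and Foxc1 passed in none. The summed signal of the 8 was 36.0 to 646 with Eomes and 26.2 to 711 without, and its part in the differences was not tested.

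The 12 genes named as higher were those whose difference was largest with the least favourable cell left out, a choice made on these values. Ppig, a nuclear cyclophilin, read 1295 in X-10C, 854 in X-16K, 805 in X-16O, 1031 in X-20O, 1406 in X-21J and 849 in X-5i, and passed in 11 of 20 others, with a median of 81.0 and a highest value of 861. X-10C, X-20O and X-21J lay above that value, and the difference was 2.86. The other 2 probe sets of Ppig gave -0.46 and -0.25. Frmd4b, a scaffold protein of epithelial junctions, read 1200 in X-10C, 1222 in X-16K, 1877 in X-16O, 1397 in X-20O, 3036 in X-21J and 1723 in X-5i, and passed in 10 of 20, where it reached 2446. It was lit in every cell with Eomes, with a difference of 2.75, and 2 further probe sets lit in all 6 cells gave 2.05 and 2.47. Polb, the DNA polymerase of base excision repair, read 389 to 1737 in the 6 and passed in 11 of 20, with 2.33, and 2.80 on a second probe set lit in all 6, while a further one passed in 0 of 6 and 6 of 20, at -0.91.

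Tenm2, a teneurin that acts in axon and synapse contact, read 219 in X-10C, 1362 in X-16K, 0.633 in X-16O, 859 in X-20O, 1532 in X-21J and 2020 in X-5i, and passed in only 4 of 20 others, at up to 1204. The difference was 2.83, or 2.47 without X-5i, but another probe set passed in 1 of 6 and 9 of 20 cells, at -1.15. Slc9a5, a sodium-proton exchanger, read 327 to 1098 in the 6 and passed in 8 of 20, with 2.60. Exosc9, a subunit of the RNA exosome, read 104 to 853 in the 6 and passed in 10 of 20, with 2.32. Gsk3b, the kinase of the Wnt pathway, read 332 to 2134 in the 6 and passed in 14 of 20, with 2.68, but another probe set passed in 0 of 6 and 10 of 20, at -1.14, and the difference turned to -0.15 with the Eomes threshold at 6.26. Mtdh (2.68), 1700094D03Rik (2.72), Pptc7 (2.65), Dido1 (2.43) and Gpr137b (2.39) completed the 12. Of the 8 with another probe set above 50 in at least 5 of the 26 cells, 3 had one with the same call (1700094D03Rik, Frmd4b and Polb) and 6 had one of the opposite sign.

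The 12 genes named as lower were chosen in the same way. Coa5, a factor for assembly of cytochrome oxidase, read 749 in X-16K and 0.654 to 10.3 in the other 5 cells, and passed in 19 of 20 cells without Eomes, with a median of 1194. The log2 signals differed by -3.38. A second probe set passed in 1 of 6 cells and 0 of 20, at 0.49. Ak3, a mitochondrial adenylate kinase, passed in X-10C at 565 and X-20O at 620 and in 19 of 20 others, with -2.91, and its second probe set gave -1.15. Tfam, which packages mitochondrial DNA, passed in 2 of 6 and 18 of 20, with -2.44, Idh3a, of the citric acid cycle, in 2 and 17, with -2.46, and Pam16, of the protein import motor, in 1 and 16, with -2.46. Tfam turned to 0.42 with the Eomes threshold at 6.26. For Idh3a, other probe sets gave -0.08, 0.03 and 0.

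Pdzrn3, a ubiquitin ligase, passed in 0 of 6 cells, whose highest value was 5.58, and in 14 of 20 others, with a median of 454. It was at least 1.94-fold lower with Eomes by the geometric mean of the deposited signals over 50, and Tnfaip1 (0 of 6 and 15 of 20) at least 2.0-fold lower, though the difference of Tnfaip1 turned to 0.60 with the Eomes threshold at 6.26. Tle1, a Groucho corepressor through which Hes factors act, read 55.0 in X-16O, 70.6 in X-20O and 760 in X-5i and under 20 in the other 3 cells. It passed in 17 of 20 others, with a median of 894, and the difference was -2.77; a second probe set gave -0.81. Prkcb, a protein kinase C, passed in 2 of 6 and 19 of 20, with -2.57. Ttc7b (-2.49), Mettl5 (-2.49) and Taf6 (-2.49, turning to 0.27 at that threshold) completed the 12. Of the 4 with another probe set above 50 in at least 5 of the 26 cells, 1 had one with the same call (Ak3). Another 1, Idh3a, had one of the opposite sign.

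**Figure D4:**
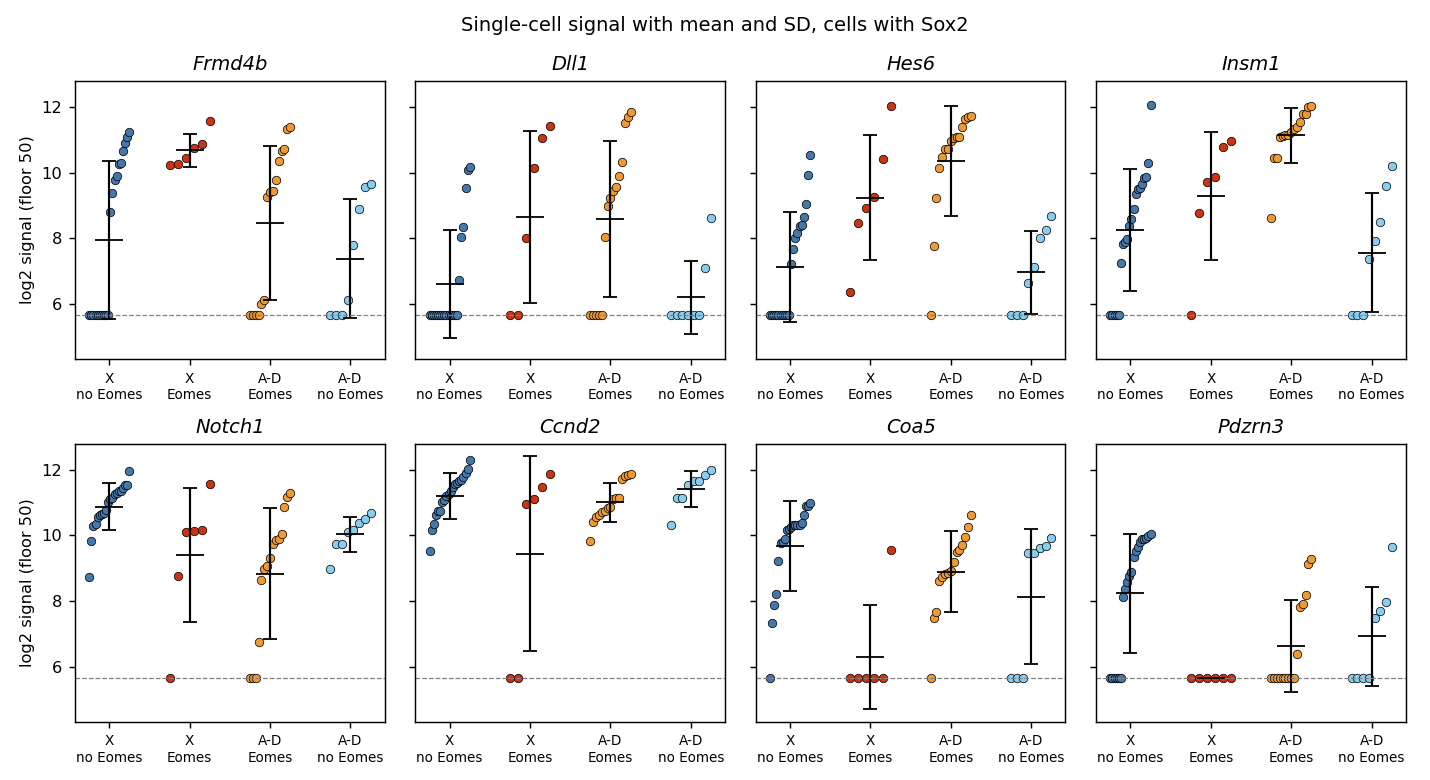
log2 signal of 8 genes in single cells with Sox2 (vertical axis, values under 50 set to 50, the dashed line), with the mean and SD over cells, by letter (X, or A to D) and by Eomes. Frmd4b and Hes6 are lit in 6 of 6 letter X cells with Eomes and in 10 of 20 without; Coa5 is lit in 1 of 6 and 19 of 20, and Pdzrn3 in 0 of 6 and 14 of 20.

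Among genes above 50 in at least 20% of the 26 cells, the 5 whose log2 signal correlated best with that of Eomes were Exosc9 (Pearson r 0.69 over 26 cells), Slc9a5 (0.67), Tenm2 (0.65), Ppig (0.62) and Fbxo30 (0.61). The first 4 are also among the 12 higher genes, and the cells share their arrays and the split on Eomes, so the values are a description. Fbxo30, a ubiquitin ligase subunit, passed in 4 of 6 and 4 of 20 cells, with a difference of 1.91.

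The cells with the letters A to D gave the same split in cells the rule did not use: 15 with Sox2 and Eomes, of which 11 had the letter B and 4 the letter C, and 8 with Sox2 alone, of which 7 had the letter A and 1 the letter B. Letter and Eomes nearly coincide there and cannot be told apart. In that comparison 708 genes (3.89%) were higher and 800 (4.4%) lower. Of the genes higher in letter X, 91 were higher there too, which is 14.4% of the 631 and 12.9% of the 708, and 51 (8.08%) were lower. Of the genes lower in letter X, 144 were shared, 18.4% of the 783 and 18% of the 800, and 70 (8.94%) were opposite. Without X-5i, 60 higher genes were shared and 66 opposite, and 127 lower genes were shared and 97 opposite.

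The differences of the marker genes in the letters A to D are given side by side with those of letter X. Neurog2 was higher with Eomes there by 5.37, against -1.14 in letter X, and it read 1379 to 5664 in the 15 cells. Gadd45g was higher by 4.23 and passed in 15 of 15, and Mfng by 4.17, also in 15 of 15. Insm1 was higher by 3.58 and Hes6 by 3.40, both also higher in letter X, and Dll1 by 2.39. Hes1 was lower by -2.79 there and passed in 0 of 15, at no more than 8.15, whereas X-16K and X-20O read 295 and 310. Pax6 was lower by -1.85 there and read 66.4 to 2580. Of the apical list, 21 of 26 were lower there and of the intermediate progenitor list, 17 of 26 were higher. Among all genes, 4.4% were lower there and 3.89% higher. Of the 12 higher genes of letter X, Frmd4b (1.10), Tenm2 (1.22) and Slc9a5 (1.12) were higher there too and Gpr137b was lower (-1.01). Of the 12 lower genes, Ak3, Tle1 and Prkcb (-2.43) were lower there too and Idh3a was higher (1.13).

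Set directly against the 15 cells, the 6 letter X cells with Eomes had 932 genes (5.12%) higher and 740 (4.07%) lower. Of 26 apical markers 18 were higher and 0 lower in letter X, with a median of 1.28, and of 26 intermediate progenitor markers 2 were higher and 15 lower, with a median of -1.17. Of 26 neuron markers, 1 was higher and 9 were lower, with a median of -0.57. These counts include X-5i, which was unlike the other 5 cells in all of these lists, and they were not computed without it. What else differed between the letters is not in the labels, and its part in these differences was not tested. By the correlation of centred log2 signals over 7590 genes, the 5 cells with Pax6 read 0.04 to 0.18 against the mean of the letter X cells without Eomes and -0.10 to 0.002 against the mean of the 15 cells. X-5i read -0.27 and 0.06, and 0.11 against the mean of the letter D and cortical plate cells, where the other 5 read -0.23 to -0.17. These correlations are weak and include each gene's amplification noise.

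Eomes without Sox2 was found in 2 further letter X cells. X-10E, with Sox2 at 47.8 and so just under the threshold, read 1185 for Eomes, 1345 for Pax6, 2939 for Neurog2, 2575 for Gadd45g and 2971 for Insm1, and held 18 intermediate progenitor and 14 neuron markers. X-3i, with Sox2 at 0.671, read 3181 for Eomes, 3831 for Neurog2 and 1327 for Neurod1, and held 20 and 19. Both passed 50 on the second Eomes probe set, at 896 in X-10E and 94.0 in X-3i. With X-10E and X-3i counted among the Eomes cells and all 23 other letter X cells as the rest, 501 genes were higher and 546 lower.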

How the data were processed

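Single cells of the dorsal forebrain were amplified and hybridised to Affymetrix arrays. The deposited values are linear intensities per probe set, produced by the authors with MAS5 (per the submitters' processing notes); its version and scaling are not given in the sources used here. Probe sets annotated to 1 gene (34958 of 45101) were used, and a gene with several was represented by the one with the largest mean log2 intensity over all 69 cells, which left 18194 genes. Values under 50 were set to 50 before log2. The labels name no animal or litter and each array is 1 cell, so each group counts as 1 sample and no p-value was computed. A difference is the mean log2 intensity with Eomes minus that without, and called means at least 1 log2 unit, by size alone.

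The members, gene lists and alternatives were chosen with earlier results of these data known. The genes named by rule were 12 higher and 12 lower (above 50 in at least 50% of the cells of the higher group, ranked by the smallest difference over fits that left out 1 cell), the members of the 3 marker lists, up to 4 members of each other list, 15 fixed genes, and the 5 genes that correlated best with Eomes. Cells named in the text carry the names of their labels. Shares have exact Clopper-Pearson 95% intervals, for counting error only. Python 3.11.15, numpy 2.4.6, pandas 2.3.3 and scipy 1.17.1 were used, and the contrast was tested on simulated data. The number of arrays limits the precision of every value.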

Additional observations from a re-analysis of the deposited data

Results flagged for a closer look

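Each of 82 genes was looked at in the 6 cells with Sox2 and Eomes for 1 cell that stands apart from the other 5 on the log2 scale with the floor of 50, by the gap to its nearest neighbour over the whole range (above Dixon's 95% critical value for 6). Of these genes, 22 met it. The rate of about 1 in 20 groups that chance gives cannot be set against this number: with the floor, a gene above 50 in 1 of 6 cells always meets it, as 11 of the 22 did, and many of the genes were picked on these cells. Of the 22, 11 were in X-5i, the cell with Pax6 under 50.

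X-5i was highest for Tubb3 at 5653, Sstr2 at 3887, Neurod2 at 3802, Hprt at 1088, Tbr1 at 996, Tle1 at 760, Neurod1 at 553 and Mettl5 at 247. The same cell was lowest for Aldoc at 79.3, Pax6 at 7.03 and Rhbdl3 at 1.54. X-16O, the cell with the least Eomes, was lowest for Rbpj at 68.9, Pptc7 at 19.6, Dido1 at 3.51 and Gpr137b at 1.18, and highest for Taf6 at 1306. X-20O was highest for Pam16 at 931 and for the muscle phosphofructokinase Pfkm at 696. X-16K was highest for Coa5 at 749 and X-10C for the replication gene Gins2 at 423. X-21J was highest for Ttc7b at 68.97 and lowest for Arhgap11a at 2.27.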

How the results depend on the processing

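No paired analysis was possible because the labels number no replicates. Leaving out each Eomes cell in turn gave 676 to 862 genes higher and 786 to 956 lower, against 631 and 783. A floor at 6.26, the TrpnX level, gave 1344 and 2159, and no floor 2244 and 2985. The mean of all probe sets gave 296 and 355. With the Eomes threshold at 6.26, 254 genes were lower. Against the 9 cells without Eomes of no more genes, an alternative chosen after seeing the data, 1066 were higher. Quantile scaling (512 and 739) and scaling to the 75th percentile (807 and 717) moved neither count by over 1.5 times, and thresholds of 100 left the cells the same.

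With the floor at 6.26, list medians moved to 0.094 for interneuron, 0.026 for Cajal-Retzius, 0.099 for endothelial, 0.030 for erythroid, 0.067 for pericyte, 0.020 for oligodendrocyte precursor and -0.069 for immediate early genes. With no floor they were 0.23, 0.27, 0.64, 0.063, 0.58, -0.084 and 0.091, with 0.33 for microglia and 1.505 for intermediate progenitor genes.

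The mean of all probe sets turned Sox9 to 0.0026. The Eomes threshold at 6.26 turned Gsk3b to -0.15, Tnfaip1 to 0.60, Taf6 to 0.27, Tfam to 0.42, Mfng to -0.017, Rrm2 to 0.049, Mcm2 to 0.51, Nusap1 to -0.22, Aurka to -0.45, Pfkm to 0.49, Aldoa to 0.17 and B2m to 0.49. The cause was not tested. Of 69 named genes past 1 log2 unit, 55 kept their sign in all 16 alternatives. In all of them 6 stayed past 1: Coa5, Dll1, Frmd4b, Mettl5, Pdzrn3 and Polb. These counts overstate the number of separate checks. The Eomes and Sox2 thresholds of 100 gave the same cells and so could change no value. All but Dll1 of the 6 had been ranked on fits that left out 1 Eomes cell. For genes ranked in that way, leaving out 1 Eomes cell was no separate check. Values under 50 were set to 50 and so carry no order in the main comparison, although the TrpnX level of 6.26 lay lower. Each Eomes cell is 1 of 6.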
